A study of Mus musculus with 14 samples.

Results

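Among the E18.5 hindbrain cells of this series, 689 passed a gate for non-dividing cells of the granule lineage that carry transcripts of Barx2, a homeobox gene. They were 689 of 55054 E18.5 cells that passed the quality limits and of 122658 such cells in the whole series of 14 libraries. The members were selected on the unique molecular identifiers (UMIs, each standing for 1 captured transcript) of each cell. A member had at least 1000 detected genes, less than 10% mitochondrial UMIs, at least 1 UMI of Barx2 and at least 2 of Pax6, a paired-box gene of granule precursors. It had 0 UMIs of Tlx3, of Mki67 and Top2a, which mark dividing cells, and of Hoxb2, Hoxb3 and Hoxb4, which are silent in the cerebellum, and at most 4 of Eomes, a gene of unipolar brush cells. The cells were thus chosen by the UMIs of 9 genes, and the levels of these genes are descriptions and were not tested.

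Single-cell RNA sequencing was done on hindbrains, cerebellum included, of C57BL/6J mouse embryos, with 1 embryo per library and 3 libraries per genotype at E18.5. Every embryo carried 1 Atoh1 allele whose coding sequence is replaced by Cre recombinase, and a Cre-dependent tdTomato reporter at the Rosa locus, so that cells of Atoh1 descent glow red and could be sorted as TdTom-positive, DAPI-negative cells. Controls (Atoh1 Cre/+) had a wild-type second Atoh1 allele. Mutants (Atoh1 Cre/S193A, written Atoh1 S193A/- in the labels) had a second allele with the S193A change, which puts alanine in place of a serine that can be phosphorylated, and each mutant was collected with a littermate control, taken here to be the control of the same replicate number. The sort takes cells with a history of Atoh1-driven Cre, not only cells that express Atoh1. Both genotypes lack 1 functional copy of Atoh1, and because the mutation is a point mutation the Atoh1 transcript level does not check the genotype labels. Unless stated otherwise, values are listed for control replicates 1 to 3 and then for mutant replicates 1 to 3.

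Cerebellar granule cells are glutamatergic neurons that arise in the rhombic lip, a strip of dorsal hindbrain epithelium in which the basic helix-loop-helix (bHLH) factor Atoh1 is switched on. Their precursors spread over the cerebellar surface as the external granule layer, divide there in response to Sonic hedgehog, leave the cell cycle, and turn on neuronal genes before they move inward. The neighbouring roof plate and the lip itself are sources of WNT and BMP signals, and the lip later gives rise to unipolar brush cells, which are marked by Eomes, Lmx1a and Otx2.

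The 6 E18.5 libraries held 108239001 to 183911797 UMIs each. The controls held 74, 124 and 91 members and the mutants 184, 111 and 105, and the summed UMIs of the members of a library came to 1049909 to 2384619. Median UMIs per member were 15306.5, 11180.5 and 13387 in the controls and 12611, 11233 and 9397 in the mutants. No cell barcode of a member occurred in more than 1 library. Mutant replicate 1 held the most members and, as described below, the highest levels of several of their genes, and mutant replicate 3 was the shallowest library.

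At the edges of the gate, 366 of the 689 members (53.1%) had exactly 1 Barx2 UMI and 323 had more. Only 16 had exactly 2 Pax6 UMIs, and 71 had exactly 4 Eomes UMIs. Of the 689, 311 had 0 Eomes UMIs and the others had 1 to 4. Low Eomes was thus common among the members, and the name granule lineage follows the gate. Just outside it lay 23 cells with a single Pax6 UMI, 58 with 5 Eomes UMIs and 277 with a single UMI of Mki67 or Top2a. In all, 5166 kept E18.5 cells had a Barx2 UMI, of which the members were 13.3%. Dividing-cell transcripts kept out 63.6% of the 5166, Eomes 37.7%, the Hoxb genes 23.4%, Tlx3 9.49% and Pax6 3.29%, with many cells failing several criteria. A dividing counterpart, with Mki67 or Top2a UMIs and otherwise the same gate, numbered 1495 cells. The non-dividing granule lineage cells used for comparison were 5036 Tlx3-positive cells with 0 Barx2 UMIs and 11690 cells with 0 UMIs of both genes, while 70 cells carried both.

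Of the 4 genes put forward as marks of these cells, Barx2 chose them, Nts and Neurod4 were higher in them than in the other granule lineage cells, and Cartpt was lower. All levels are UMIs per 1000000 UMIs (CPM) of the summed member cells of a library, and a summed level cannot tell fewer expressing cells from less RNA in each. Barx2, on chromosome 9 (GRCm38, 31846044 to 31913462, minus strand), was at 137, 181 and 153 CPM in control members and at 224, 185 and 197 CPM in mutant members. Nts encodes the precursor of the secreted peptides neurotensin and neuromedin N. Its level in the members was 1047, 1084 and 1390 CPM in the controls and 2561, 989 and 1249 CPM in the mutants, with mutant replicate 1 above the rest and the others overlapping. The mean over the 6 libraries was 1387 ± 594 CPM (SD, n = 6) for Nts, against 8.37 ± 5.72 CPM in Tlx3-positive cells and 29.7 ± 10.6 CPM in cells with neither gene. The dividing Barx2-positive cells had an Nts level of 1483 ± 457 CPM, which overlapped that of the members.

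Neurod4, a proneural bHLH factor gene, stood at 28.4, 56.6 and 59.3 CPM in control members and 30.2, 46.4 and 39.1 CPM in mutant members. Tlx3-positive cells had 1.73 ± 0.517 CPM of Neurod4 and cells with neither gene 4.95 ± 1.26 CPM (SD, n = 6), and no library of either group reached the lowest member value. Cartpt, which encodes the precursor of the CART peptides, went against its listing as a marker. It was at 135, 60.0 and 17.4 CPM in control members and 45.3, 39.2 and 26.7 CPM in mutant members, against 228 ± 95.2 CPM in Tlx3-positive cells and 234 ± 65.7 CPM in cells with neither gene. Every member value of Cartpt lay below every value of the other groups, so Cartpt marks the other granule lineage cells rather than the Barx2-positive ones. The cells are therefore called Barx2-positive cells here, after their gate, with Nts and Neurod4 as accompanying genes of the group. The 2 genes were not raised in the same members in most libraries, as described below.

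**Figure D1:**
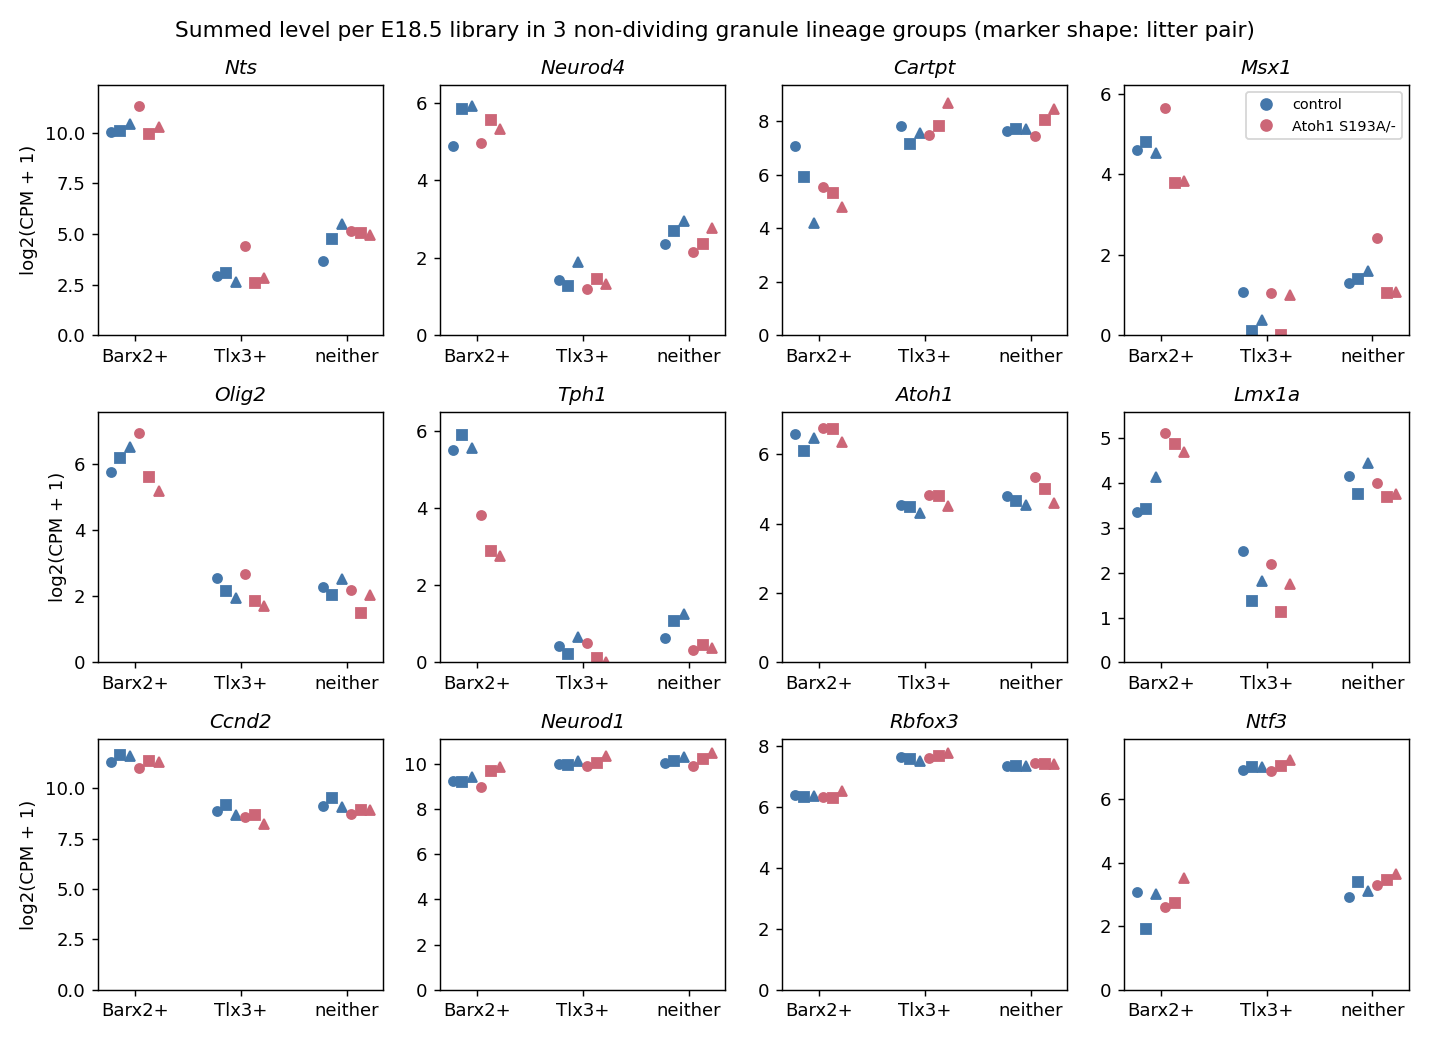
Summed level of 12 genes, as log2(CPM + 1), in Barx2-positive, Tlx3-positive and Barx2- and Tlx3-negative (neither) cells, 1 point per E18.5 library, with controls in blue, Atoh1 S193A/- in red and the marker shape giving the litter pair. Nts, Neurod4, Msx1, Olig2 and Ccnd2 were higher in the Barx2-positive cells of every library, Cartpt, Neurod1 and Rbfox3 were lower, Ntf3 was lower than in Tlx3-positive cells, and Lmx1a overlapped between Barx2-positive and neither cells.

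Because deeper cells show more genes, the shares of cells with a transcript were taken after thinning every cell to 5000 UMIs. Nts was then found in 26.0% to 44.3% of members over the 6 libraries, against 1.56% to 7.39% of Tlx3-positive cells and 3.67% to 10.2% of cells with neither gene. Nts was unevenly spread among the members: 55.7% to 74.0% of them had no Nts UMI after thinning, whereas 16.4% to 33.9% had 5 or more. In all 6 libraries the members with 5 or more Nts UMIs had fewer UMIs of Neurod1, a bHLH factor gene of differentiating granule cells, with means of 0.952 to 2.93 against 3.29 to 6.27 per thinned cell in members without Nts. Neurod4 was at 0.0370 to 0.278 UMIs per cell in members with 5 or more Nts UMIs and 0.0577 to 0.386 in those without. In control replicates 2 and 3 and mutant replicates 1 and 3 it was lower in the Nts-rich members, at 0.0370 to 0.0800 against 0.247 to 0.386. In control replicate 1 and mutant replicate 2 it was slightly higher in them, at 0.0667 against 0.0577 and 0.278 against 0.210. These splits are descriptions within the gated cells.

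The Nts promoter is shown because Nts was the marker with the widest gap between the members and the other granule lineage cells. The window runs from 250 bases before to 20 bases after the RefSeq transcript start (GRCm38.p6, chr10:102490399-102490668, minus strand). Capitals mark CAGCTG, an E box of the kind bound by proneural bHLH proteins, whose letters read alike on both strands.
Nts: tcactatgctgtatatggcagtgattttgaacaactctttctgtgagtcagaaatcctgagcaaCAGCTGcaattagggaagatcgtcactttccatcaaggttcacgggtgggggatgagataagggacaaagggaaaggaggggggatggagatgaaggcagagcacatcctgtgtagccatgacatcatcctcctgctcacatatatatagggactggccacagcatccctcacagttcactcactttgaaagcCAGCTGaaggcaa
The matches begin 186 bases before the start and at base 8 after it. CAGCTG occurred in 4667 of 32851 windows of the same size in the RefSeq promoter table (14.2%), and a match describes the letters only.

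The Barx2-positive cells were next compared with Tlx3-positive cells of the same libraries, library by library, to describe what sets them apart within the non-dividing granule lineage. Of 9686 genes tested with edgeR's quasi-likelihood test, 5012 (51.7%) were called at an adjusted p under 0.05 and a log2 change over 0.25. Of these, 2518 were higher (26.0%) and 2494 lower (25.7%) in Barx2-positive cells. Against cells with neither gene, 4870 of 9362 genes (52.0%) were called, 2429 higher (25.9%) and 2441 lower (26.1%). Called or not, 50.8% of genes in the first comparison and 52.3% in the second had the same direction in all 6 libraries. The gates read the same cells whose other genes are compared, so these calls describe the gated groups, and the 2 comparisons share the Barx2-positive cells. Since calls were this common, a list is read here against the median log2 difference of all genes tested, which was 0.01 in both comparisons.

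Rassf9, which encodes a Ras-association domain protein, was far higher in the members than in Tlx3-positive cells. Its level in members was 145, 73.8 and 87.0 CPM in controls and 226, 52.0 and 86.7 CPM in mutants, whereas the Tlx3-positive cells of the 6 libraries had 0.314 to 1.71 CPM. Rassf9 entered the test through the members, so its log2 difference of 6.83 ± 0.13 (SE) is given as a description. Rassf9 lies next to Nts, with 21735 bases between the annotated genes (Nts chromosome 10, 102481756 to 102490486, minus strand, and Rassf9 102512222 to 102549736, plus strand, GRCm38), so the 2 genes are transcribed away from each other. Mutant replicate 1 had the highest level of both Nts and Rassf9.

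Several transcription factor genes were among the strongest rises. Msx1, a homeobox gene that responds to BMP signals in the roof plate, was at 23.4, 26.9 and 22.2 CPM in control members and 49.1, 12.8 and 13.3 CPM in mutant members, against 0.591 ± 0.519 CPM in Tlx3-positive cells (log2 difference 5.46 ± 0.40). Olig2, a bHLH factor gene best known from motor neuron and oligodendrocyte progenitors, was at 52.6, 71.1 and 89.4 CPM in controls and 121, 48.0 and 35.2 CPM in mutants, and no Tlx3-positive library exceeded 5.38 CPM. For both genes mutant replicate 1 was the highest library. Tal2 (log2 difference 5.02 ± 0.28), a bHLH gene, Dbx1 (4.54 ± 0.24) and Shox2 (4.46 ± 0.34), both homeobox genes, were also far higher. Tph1, which encodes tryptophan hydroxylase 1, an enzyme of serotonin synthesis, had a log2 difference of 6.71 ± 0.28 and is taken up again below, since it differed between genotypes. Cxcl14, a chemokine gene, rose by 4.35 ± 0.16. Msx1, Olig2 and Tph1 entered the test through the members, so their log2 differences are descriptions, as that of Rassf9 is. Tal2, Dbx1, Shox2 and Cxcl14 can have entered in the same way.

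Of 15 tested genes for regional transcription factors, 8 were higher and 4 lower in Barx2-positive than in Tlx3-positive cells. Their median log2 difference was 0.97. Besides Msx1, Pax3 was higher at 249 against 31.4 CPM on average (log2 3.09 ± 0.13), and so was Irx5 (2.90 ± 0.21). Otx2, a homeobox gene expressed in the rhombic lip and in posterior granule cell precursors, was at 633, 657 and 718 CPM in control members and 664, 700 and 760 CPM in mutant members, against 113 to 147 CPM in Tlx3-positive cells. Otx2 was therefore even across the members of all 6 libraries and did not overlap with the Tlx3-positive cells. En1, a homeobox gene of the midbrain-hindbrain boundary territory, and Isl1 (log2 -4.12 ± 0.35), a LIM homeobox gene, were lower in Barx2-positive cells.

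Of 17 tested granule lineage factors, 9 were higher and 6 lower, with a median of 0.25. Atoh1 itself was at 95.2, 67.6 and 87.0 CPM in control members and 107, 104 and 81.0 CPM in mutant members, against 23.0 ± 3.31 CPM in Tlx3-positive cells and 27.9 ± 6.51 CPM in cells with neither gene (SD, n = 6). No library of those groups reached the lowest member value of Atoh1, and the log2 difference against Tlx3-positive cells was 2.05 ± 0.08. Sox2, a gene of neural progenitors (2.26 ± 0.20), and Barhl1 (1.69 ± 0.09) and Barhl2 (1.63 ± 0.10), homeobox genes that act downstream of Atoh1, were higher as well. Neurod1, Zic1, Zic2, Zic5, Meis1 and Id1 were lower.

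Signalling genes moved in both directions. Of 12 tested genes of the WNT, BMP and FGF pathways, 9 were higher and 3 lower (median 1.23). The same filter, applied to the genotypes of the Barx2-positive cells alone, passed 9 genes of this list. Etv4 and Etv5 were not among these and entered through the Tlx3-positive cells. Wls, which carries WNT proteins to the cell surface and is a gene of the rhombic lip, was at 61.8, 68.3 and 67.2 CPM in control members and 108, 82.3 and 77.2 CPM in mutant members, against 4.32 to 6.78 CPM in Tlx3-positive cells (log2 3.86 ± 0.12). Bmp7 (2.82 ± 0.22), a BMP ligand gene, rose with it, while Etv4 (-3.59 ± 0.34) and Etv5 (-2.88 ± 0.17), transcription factor genes induced by FGF signals, were lower. Of 12 Notch pathway genes, 7 were higher and 4 lower (median 0.51). The receptor gene Notch1 (2.98 ± 0.12) and its target Hes5 (2.77 ± 0.05) were higher, and Hes5 stood at 252 to 421 CPM in the members against 35.2 to 75.2 CPM in Tlx3-positive cells. Dner, which encodes a transmembrane Notch ligand, was lower (-1.71 ± 0.06).

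Of 15 tested Sonic hedgehog pathway genes, 6 were higher and 6 lower, with a median of 0.23. Ccnd2, which encodes cyclin D2, was at 2504, 3270 and 3122 CPM in control members and 2096, 2638 and 2528 CPM in mutant members, against 298 to 586 CPM in Tlx3-positive cells (log2 2.75 ± 0.12). The co-receptor genes Cdon (3.43 ± 0.25) and Gas1 (1.96 ± 0.07) and the transcription factor gene Gli3 (1.96 ± 0.17) rose. The receptor gene Ptch1, which is also a pathway target, the co-receptor gene Boc, and Ccnd1 (-1.09 ± 0.27), which encodes cyclin D1, were lower.

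Summed levels of listed S phase genes and of listed G2 and M phase genes in the members stood between those of Tlx3-positive cells and of dividing Barx2-positive cells. The gap to the dividing cells follows in part from the gate, which parts them from the members by Mki67 and Top2a. All 22 tested DNA replication genes of the S phase list were higher in Barx2-positive cells than in Tlx3-positive cells (median 1.33), and all 22 were higher than in cells with neither gene (median 1.44). The strongest was Mcm2, a subunit of the replicative helicase, at 82.7, 91.7 and 90.2 CPM in control members and 76.3, 67.2 and 47.6 CPM in mutant members, against 16.3 to 29.1 CPM in Tlx3-positive cells. The summed level of the 25 listed S phase genes was 1215 to 1848 CPM in the members, 634 to 773 CPM in Tlx3-positive cells and 3044 to 3455 CPM in the dividing Barx2-positive cells. The same sum for 25 G2 and M phase genes was 568 to 786 CPM in members, 284 to 390 CPM in Tlx3-positive cells and 6965 to 7782 CPM in their dividing counterpart. The members were therefore gated free of Mki67 and Top2a UMIs without being free of replication transcripts. In every library members had fewer median UMIs than Tlx3-positive cells, at 9397 to 15306.5 against 12214 to 17008. Cells with neither gene had 9618 to 14805. A dividing cell in which neither Mki67 nor Top2a was sampled can pass the gate, and the part of such cells was not tested. Of 12 genes for cell cycle exit, 4 were higher and 4 lower, where 26.0% and 25.7% of all genes were. Gadd45g (1.65 ± 0.09) and Btg2 (1.57 ± 0.08) were higher, and Cdkn1a, the gene of the cyclin-dependent kinase inhibitor p21, was lower (-2.49 ± 0.14).

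Neuronal genes were the other pole. Of 15 newborn granule neuron genes, 12 were lower in Barx2-positive than in Tlx3-positive cells and 1, Nrn1, was higher (median -0.73). Of 16 later neuronal genes, 14 were lower and 1, Slc17a6, which encodes the vesicular glutamate transporter VGLUT2, was higher (median -1.37). Nefm, a neurofilament gene, was at 108, 92.4 and 41.9 CPM in control members and 76.3, 55.2 and 46.7 CPM in mutant members, against 624 to 892 CPM in Tlx3-positive cells (log2 -3.22 ± 0.21). Stmn2, a gene of growing axons (-1.76 ± 0.15), Dcx, a gene of migrating neurons (-1.53 ± 0.13), and Mapt, the tau gene (-1.47 ± 0.12), were lower too.

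The same held for the machinery of the neuronal surface. Of 16 transmitter receptor genes, 15 were lower and 0 higher (median -1.53), led by Chrna3, a nicotinic receptor subunit gene (-3.18 ± 0.14). Of 23 ion channel genes, 16 were lower and 3 higher (median -1.13). Of 10 genes that process or carry neuropeptides, 9 were lower and 0 higher (median -1.01). Pcsk2, the gene of a convertase that cuts peptide precursors, was at 46.0, 20.7 and 15.0 CPM in control members and 23.1, 16.8 and 26.7 CPM in mutant members, against 72.9 to 150 CPM in Tlx3-positive cells. The members thus had more Nts precursor transcript than Tlx3-positive cells, as the dividing Barx2-positive cells also did, and lower levels of most processing genes. Of 30 cadherin and other adhesion genes, 18 were lower and 6 higher (median -0.73). The same filter, applied to the genotypes of the Barx2-positive cells alone, passed 9 receptor, 20 channel, 9 processing and 24 adhesion genes. A gene such as Chrna3, which passed only through the Tlx3-positive cells, was likely to come out lower by that filter, and these medians include such genes. Of 8 proneural bHLH genes, counted without the proposed marker Neurod4, which was higher in members, 7 were lower and 1, Atoh1, higher (median -0.58).

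Guidance genes were split, with 15 of 31 higher and 13 lower (median 0.25). Higher genes included the secreted repellents Slit1 (3.14 ± 0.15) and Slit2 (2.95 ± 0.11) and the ephrin receptor gene Epha4 (3.71 ± 0.19), and lower ones the SLIT receptor genes Robo1 and Robo2. Slit2 was at 73.5, 70.4 and 80.7 CPM in control members and 94.4, 79.9 and 51.4 CPM in mutant members, against 7.22 to 13.2 CPM in Tlx3-positive cells. Ntf3, the neurotrophin-3 gene, fell strongly, with 2.76 to 10.5 CPM in members against 118 to 152 CPM in Tlx3-positive cells (-4.31 ± 0.12). Other strong falls were Insm2 (-4.99 ± 0.31), a zinc finger gene, Pmaip1 (-4.44 ± 0.30), a BH3-only death gene, and Fgf5 (-4.43 ± 0.17), a growth factor gene. Several of these falls mark the Tlx3-positive cells rather than the Barx2-positive ones, because cells with neither gene were also low. Ntf3 averaged 9.04 CPM and Pmaip1 2.00 CPM in cells with neither gene. Of 16 death-related genes, 5 were higher and 6 lower (median -0.14), where 26.0% and 25.7% of all genes were.

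**Figure D2:**
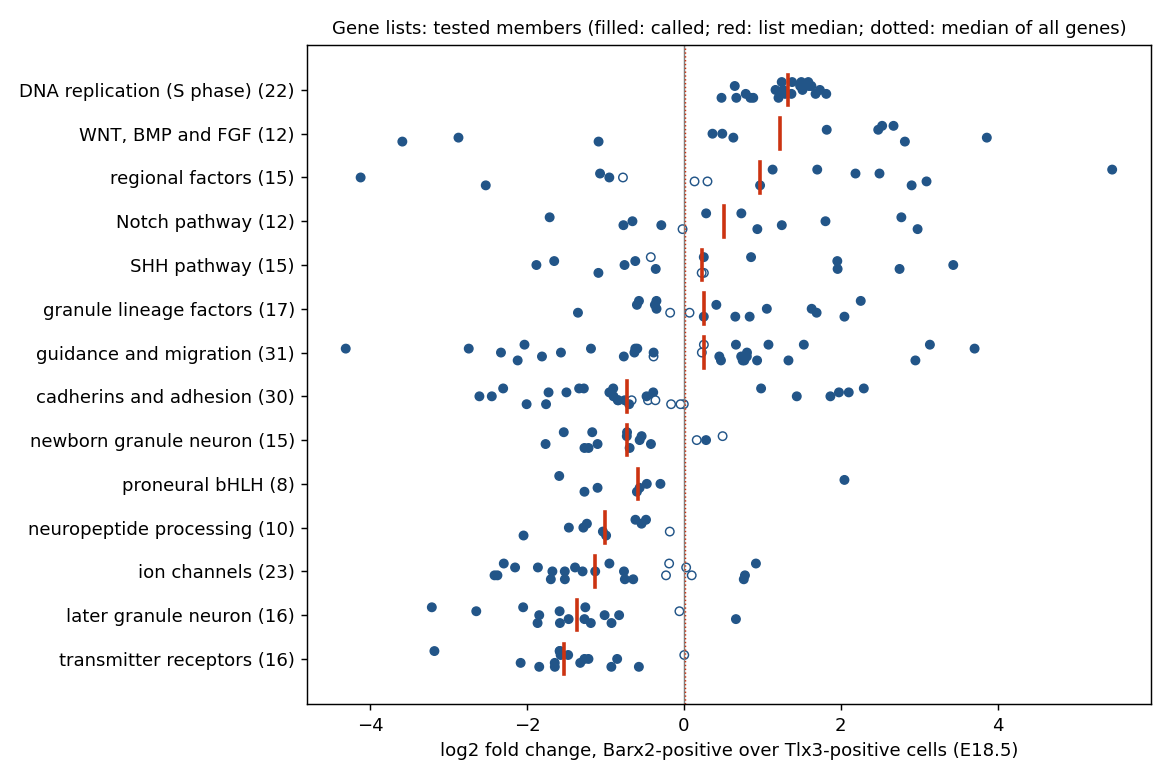
Log2 fold change of Barx2-positive over Tlx3-positive cells at E18.5 for the tested members of 14 gene lists (number tested in brackets), 1 point per gene, filled where called, with the list median as a red bar and the median of all genes as a dotted line. S phase genes lay wholly above 0 with a median of 1.33, and transmitter receptor genes lay lowest with a median of -1.53. The lists include genes that passed the expression filter in only 1 group.

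Against cells with neither gene, several of the strongest rises were again Tal2 (6.23 ± 0.28), Tph1 (5.49 ± 0.22), Rassf9 (5.23 ± 0.38), Dbx1 (5.10 ± 0.33), Olig2 (4.47 ± 0.19) and Msx1 (3.76 ± 0.17). Hrh3, a histamine receptor gene, had 30.0 CPM on average in members against 2.83 CPM in these cells. Lmx1a, by contrast, averaged 20.3 CPM in members and 14.9 CPM in cells with neither gene, and the libraries overlapped. Of the lists, later neuronal genes had 15 of 16 lower (median -1.48), receptor genes 17 of 18 (median -1.41) and peptide processing genes 10 of 10 (median -0.90). These counts can include genes that passed the expression filter only through the cells with neither gene, and the rises genes that passed only through the Barx2-positive cells. Sfrp1, a secreted WNT antagonist gene, had the strongest fall of a named gene, at 8.41 against 59.9 CPM (-2.51 ± 0.40).

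Markers of other cell types were summed in the members, and some lists stood higher there than in Tlx3-positive cells. The summed level of 13 Hox genes of the pontine lineage and caudal hindbrain was 4.00 to 13.3 CPM, with Hoxb7, Hoxc5, Hoxd3 and Hoxb1 among those at 0 in every library. The gate left out cells with Hoxb2, Hoxb3 or Hoxb4 UMIs, so a low Hox level follows in part from the selection. The 18 immune, vascular and blood genes summed to 9.19 to 40.3 CPM, with C1qb, Csf1r, Aif1 and Rgs5 at 0, and the 6 choroid plexus and ependymal genes to 7.91 to 23.8 CPM. The 13 inhibitory neuron genes summed to 156 to 209 CPM against 110 to 134 CPM in Tlx3-positive cells, and the 10 Purkinje cell genes to 179 to 232 CPM against 115 to 148 CPM, with Skor2 at 0. Lhx1, which both lists hold, averaged 152 CPM in members and 102 CPM in Tlx3-positive cells. The 9 unipolar brush cell genes summed to 695 to 882 CPM against 209 to 258 CPM, most of it Otx2. The 15 glial genes summed to 426 to 524 CPM in 5 libraries and 881 CPM in mutant replicate 3, against 240 to 347 CPM in Tlx3-positive cells, with Sox10 at 0 and 323 CPM of the 881 in Fabp7. The part of these cells in the results was not tested. Of 13 genes that respond to tissue dissociation, 4 were higher and 5 lower (median -0.09), where 26.0% and 25.7% of all genes were.

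The share of Barx2-positive cells was compared between genotypes to ask whether it differs with the S193A allele. A library is a sample of the sorted cells, so a share cannot show a change in their number. Members made up 0.918% (95% Wilson interval 0.732 to 1.15), 1.31% (1.10 to 1.56) and 0.996% (0.812 to 1.22) of kept cells in the controls and 1.62% (1.40 to 1.87), 1.32% (1.10 to 1.59) and 1.22% (1.01 to 1.47) in the mutants. The lowest mutant lay below the highest control, so the groups overlapped, while the mutant was the higher embryo in 3 of 3 litters. That order held in 1 of 3 litters with the 5% mitochondrial limit and with the gate on cells thinned to 5000 UMIs, and in 2 of 3 with 2 or more Barx2 UMIs. Means were 1.08% ± 0.208 and 1.39% ± 0.210 (SD, n = 3 each), and the difference of 0.310 percentage points had a two-sided exact permutation p of 0.2, where 3 against 3 embryos cannot give less than 0.1. Without mutant replicate 1 the difference was 0.192 points (exact permutation p = 0.3). The intervals cover counting error only.

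As a share of all non-dividing granule lineage cells, the members were 3.49%, 3.96% and 3.41% in controls and 6.42%, 3.31% and 3.14% in mutants. Mutant replicate 1 lay far above all other libraries, and the other mutants lay below every control. The difference of 0.669 points (exact permutation p = 1.0) changed sign to -0.398 without mutant replicate 1 (exact permutation p = 0.2, where 3 against 2 embryos cannot give less than 0.1). The log2 ratio of Barx2-positive to Tlx3-positive cells was -3.20, -2.85 and -3.16 in controls and -2.15, -3.00 and -3.17 in mutants, and its difference of 0.30 (exact permutation p = 0.6) likewise went to -0.014 without that library. Neither difference passed the test, which could not reach 0.05 with these numbers of embryos.

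**Figure D3:**
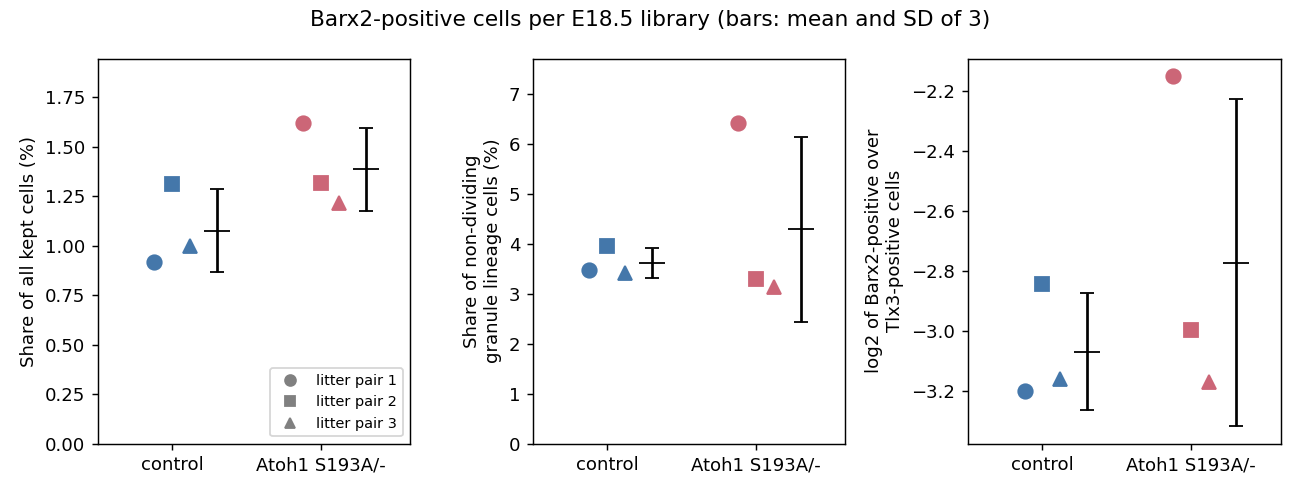
Barx2-positive cells per E18.5 library as a share of all kept cells (%), as a share of non-dividing granule lineage cells (%), and as the log2 ratio to Tlx3-positive cells, by genotype, with marker shapes for litter pairs and bars for the mean and SD of 3 libraries. Mutant replicate 1 (1.62%, 6.42% and -2.15) was the highest library in all 3 panels.

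Within the Barx2-positive cells, the edgeR fit called 10 of 9182 genes (0.109%) as different in Atoh1 S193A/-, 3 higher (0.0327%) and 7 lower (0.0762%). A gene could enter this test through the members of 1 genotype alone, as Hrk and Rab15 did. An unadjusted p under 0.05, which about 5% of genes reach with no effect, was found for 526 of the 9182. In each of the 10 genes the 3 controls and 3 mutants did not overlap, which was so of 1071 of the 9182 genes (11.7%) in all. The count was 6 without control replicate 2 and 16 without mutant replicate 1. With the litter as a block, the count rose to 68 (0.741%), 37 higher and 31 lower, and included all 10. Only 1 gene was still called when the mitochondrial limit was lowered to 5%, which left as few as 42 members in a library. That gene was D430041D05Rik, described below, and the other genes lost their calls. A test of whether the genotype effect differed between Barx2-positive and Tlx3-positive cells called 10 of 9941 genes (0.101%), 6 with a more positive (0.0604%) and 4 with a more negative effect in Barx2-positive cells (0.0402%).

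Hrk encodes harakiri, a BH3-only protein that promotes cell death by binding BCL2 family members. It was at 4.18, 6.21 and 7.91 CPM in control members, from 5, 9 and 10 UMIs, and at 32.3, 21.6 and 34.3 CPM in mutant members, from 77, 27 and 36 UMIs. Every mutant embryo was above every control, and the fold was 4.63 (log2 2.21 ± 0.31 SE, edgeR adjusted p = 0.000833). With so few UMIs in 74, 124 and 91 control members, under 10% of these members carried Hrk. Hrk therefore entered the test through the mutants, where it is high, and its fold and p are given as a description. In Tlx3-positive cells Hrk averaged 7.55 CPM in controls and 14.8 CPM in mutants, and in cells with neither gene 11.9 and 19.8 CPM. The test of the difference between the genotype effects in Barx2-positive and Tlx3-positive cells did not call Hrk. None of the other 14 tested genes of the death list was called in Barx2-positive cells, where 0.109% of all genes were called. The gene lies on chromosome 5 (GRCm38, 118164648 to 118189478, plus strand).

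Rab15, a small GTPase gene of endosome recycling, moved the opposite way. It was at 27.6, 25.5 and 26.1 CPM in control members, from 33, 37 and 33 UMIs, and at 3.77, 3.20 and 6.67 CPM in mutant members, from 9, 4 and 7 UMIs. The controls were almost equal and the mutants were 6.21-fold lower (log2 -2.64 ± 0.31, edgeR adjusted p = 0.000178). Under 10% of the 184, 111 and 105 mutant members carried Rab15. It therefore entered the test through the controls, where it is high, and this fold and p are given as a description. In Tlx3-positive cells Rab15 averaged 22.5 ± 6.40 CPM in controls and 17.3 ± 3.79 CPM in mutants (SD, n = 3 each), which overlapped. In cells with neither gene it was at 23.7, 28.9 and 29.7 CPM in controls and 14.2, 18.0 and 19.7 CPM in mutants, which did not. The genotype effects on Rab15 in Barx2-positive and Tlx3-positive cells differed (log2 difference -2.19 ± 0.35, edgeR adjusted p = 0.00391), a call lost with the 5% mitochondrial limit and without control replicate 2. Hrk and Rab15 are among the genes the study named for its own single-cell results, so they were looked at here with that known. The other 11 tested genes so named were not called, where 0.109% of all genes were called. Among them were Atoh1 (log2 0.20 ± 0.15, edgeR adjusted p = 0.951), Ccnd1 (0.86 ± 0.31), Nhlh1 (-0.54 ± 0.25) and Barhl1 (-0.33 ± 0.10, edgeR adjusted p = 0.341), although Barhl1 lay at 465 to 473 CPM in controls and 381 to 393 CPM in mutants without overlap.

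The Rab15 promoter is shown for comparison with that of Nts, in the same window around the start of the RefSeq transcript listed first (GRCm38.p6, chr12:76822505-76822774, minus strand), with CAGCTG in capitals.
Rab15: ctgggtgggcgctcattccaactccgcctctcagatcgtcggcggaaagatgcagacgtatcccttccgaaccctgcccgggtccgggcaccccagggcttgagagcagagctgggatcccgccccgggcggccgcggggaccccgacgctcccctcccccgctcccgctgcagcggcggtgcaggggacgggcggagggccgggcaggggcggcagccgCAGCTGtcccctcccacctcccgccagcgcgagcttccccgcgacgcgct
It held 1 match, which began 30 bases before the start.

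Tph1, which was almost confined to the Barx2-positive cells among the 3 groups compared, fell in the mutants. It was at 44.3, 57.9 and 45.9 CPM in control members and 13.0, 6.40 and 5.72 CPM in mutant members, with a gap between the groups and mutant replicate 1 the highest mutant. The fall was 5.42-fold (log2 -2.44 ± 0.26, edgeR adjusted p = 5.05e-05), while Tph1 was at most 0.592 CPM in any library of Tlx3-positive cells and 1.37 CPM in cells with neither gene. D430041D05Rik, a protein-coding gene model without a gene name, went from 56.0, 63.5 and 47.5 CPM to 19.7, 20.8 and 14.3 CPM (log2 -1.62 ± 0.20, edgeR adjusted p = 0.00024). It lies outside the rule for named genes and is given because it was the gene called under all 14 alternatives. In Tlx3-positive cells D430041D05Rik averaged 56.8 CPM in controls and 53.8 CPM in mutants.

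Both other rises were genes of the cell surface. Opcml, an immunoglobulin superfamily adhesion gene, rose from 32.6, 22.8 and 22.2 CPM to 77.6, 56.8 and 74.3 CPM (log2 1.41 ± 0.19, edgeR adjusted p = 0.00048). Unc5b, which encodes a receptor for netrin, rose from 24.2, 30.4 and 33.2 CPM to 63.3, 78.3 and 57.1 CPM (log2 1.13 ± 0.18, edgeR adjusted p = 0.00645). The call for Unc5b was lost with the 5% mitochondrial limit, and also without control replicate 2 and without mutant replicate 2. In Tlx3-positive cells Unc5b averaged 28.2 CPM in controls and 29.1 CPM in mutants, and the difference between the effects was called (log2 1.09 ± 0.20, edgeR adjusted p = 0.023). That call was lost with DESeq2, with the 5% mitochondrial limit, and without control replicate 1, control replicate 2 or mutant replicate 2.

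The other falls were Zfp503 (log2 -1.34 ± 0.23), a zinc finger gene, Vat1l (-1.13 ± 0.16), Synpr (-0.83 ± 0.15), which encodes the synaptic vesicle protein synaptoporin, and Adamtsl1 (-0.79 ± 0.14), a gene of the extracellular matrix. Zfp503 was at 31.7 to 35.9 CPM in controls and 11.4 to 16.4 CPM in mutants. Synpr went from 81.9, 97.3 and 91.0 CPM to 60.4, 45.6 and 47.6 CPM. All 6 libraries kept the direction in each of these genes, but Zfp503, Synpr and Adamtsl1 passed the test in only 8, 8 and 7 of the 14 alternatives.

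**Figure D4:**
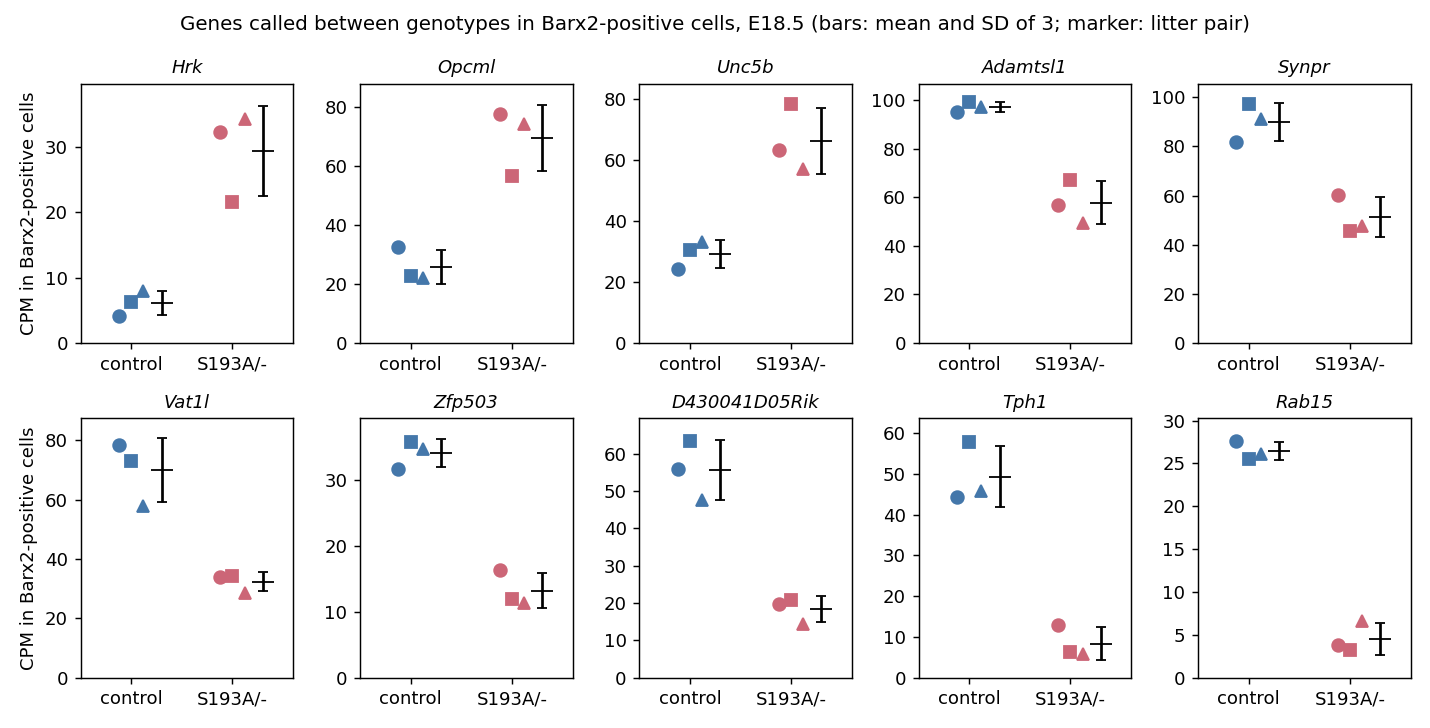
CPM of the 10 genes called between genotypes in Barx2-positive cells at E18.5, 1 point per library, with marker shapes for litter pairs and bars for the mean and SD of 3. Hrk, Opcml and Unc5b were higher in all mutants and the other 7 genes lower, with no overlap between genotypes. Hrk and Rab15 passed the expression filter in 1 genotype only.

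DNA replication genes leaned lower in the mutants without passing the test singly. The summed S phase level of the members was 1653, 1676 and 1848 CPM in controls and 1338, 1518 and 1215 CPM in mutants, which did not overlap. Of 24 S phase genes tested, 23 were lower and 0 were called, where 0.109% of all genes were called. Their median log2 change was -0.37, and that of all genes was -0.002. In 10 of the 24 (41.7%) the libraries did not overlap, against 11.7% of all genes. With the litter block, which called 0.741% of all genes, 3 were called lower: Dut (log2 -0.49 ± 0.11, edgeR adjusted p = 0.0236), Hells (-0.55 ± 0.12, 0.018) and Uhrf1 (-0.77 ± 0.18, 0.0277). Dut encodes an enzyme that keeps uracil out of DNA, Hells a chromatin remodeller and Uhrf1 a protein that maintains DNA methylation. Lower sums went with the lower median depth of mutant members in 2 of 3 litters, and the part of depth was not tested.

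Further genes called with the block alone, 58 in all, included 4 transcription factor genes that were higher in Barx2-positive than in Tlx3-positive cells, 3 of them higher and 1 lower in mutants. Lmx1a, a LIM homeobox gene of the roof plate and rhombic lip, was at 9.19, 9.66 and 16.6 CPM in control members and 33.5, 28.0 and 24.8 CPM in mutant members (log2 1.27 ± 0.26, edgeR adjusted p = 0.0104). Dbx1 was at 31.7, 18.6 and 17.4 CPM in controls and 49.1, 55.2 and 36.2 CPM in mutants (1.01 ± 0.20), with the groups apart for both genes. Shox2 overlapped between genotypes but was higher in each mutant than in its littermate (0.99 ± 0.23). Barhl2, a homeobox gene of the granule lineage, was at 140, 130 and 96.5 CPM in controls and 86.0, 102 and 83.8 CPM in mutants, lower in each mutant than in its littermate with the genotypes overlapping (-0.48 ± 0.12, edgeR adjusted p = 0.0451). Slc17a6 was lower (-0.59 ± 0.12), at 135, 148 and 163 CPM in controls and 86.4, 86.3 and 137 CPM in mutants. Lmx1a, Dbx1, Shox2, Barhl2 and Slc17a6 were chosen for mention after their values were seen.

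The same gate was applied at E14.5 to ask which features are already there at the earlier stage. It found 22, 6 and 27 cells in the controls and 110, 7 and 77 in the mutants, or 0.343%, 0.0677% and 0.278% of kept cells against 1.38%, 0.0843% and 0.910%. The mutant was the higher embryo in 3 of 3 litters, litter 2 held almost none in either genotype, and the difference in means of 0.563 percentage points had an exact permutation p of 0.3. Litter 2 held too few cells to be summed and was left out of the fit, which used control and mutant replicates 1 and 3.

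At E14.5, 1501 of 10171 genes (14.8%) were called between Barx2-positive and Tlx3-positive cells, 688 higher (6.76%) and 813 lower (7.99%). Nts varied widely between libraries, at 4.32 and 44.2 CPM in the members of control replicates 1 and 3 and at 340 and 703 CPM in those of mutant replicates 1 and 3. Both controls, with 22 and 27 members, lay below both mutants, a difference that was not tested. Msx1 was at 149 and 39.6 CPM in these controls and 161 and 106 CPM in these mutants, and Olig2 at 158, 147, 236 and 178 CPM, and for both genes the Tlx3-positive cells stayed below every member value. Their log2 differences were 5.29 ± 0.22 for Msx1 and 4.27 ± 0.21 for Olig2. Here too a gene could enter the test through 1 group alone. Cxcl14 (6.51 ± 0.26), Otx2 (2.66 ± 0.08) and Lmx1a (3.23 ± 0.47) were higher as they were at E18.5.

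Of the 2518 genes higher at E18.5, 358 were also called higher at E14.5, which was 14.2% of the E18.5 list and 52.0% of the E14.5 list, and 68 were called lower. Of the 2494 lower genes, 540 were called lower at E14.5 too, 21.7% of the E18.5 and 66.4% of the E14.5 list, and 56 higher. Of all genes tested at E14.5, 6.76% were called higher and 7.99% lower, and the 2 stages share no embryos. At E14.5, 14 of 15 newborn granule neuron genes were lower (median -1.25), against 7.99% of all genes, and 4 of 24 S phase genes were higher (median 0.24), against 6.76% of all genes. The E14.5 fit used 4 libraries and called fewer genes than that at E18.5, so the counts of the 2 stages are not on the same footing. Genes strong at E14.5 included Wnt1 (38.9 and 18.6 CPM in controls, 35.1 and 12.7 CPM in mutants), the ligand gene of the rhombic lip, and Hes1 (log2 3.13 ± 0.14), a Notch target. Fgf8, the growth factor gene of the midbrain-hindbrain boundary, was at 0 in the members of all 6 E14.5 libraries and at 15.2 to 40.7 CPM in the Tlx3-positive cells of the 4 libraries fitted. Etv4 was likewise at 0 in all E14.5 members, and Etv5 was lower (-5.12 ± 0.40).

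**Figure D5:**
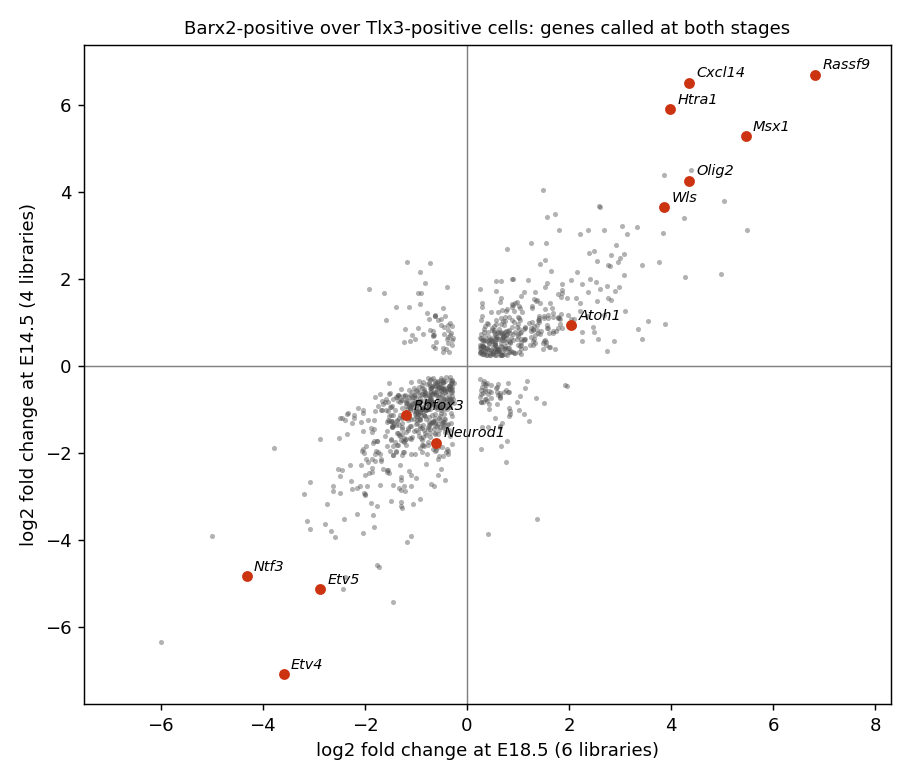
Log2 fold change of Barx2-positive over Tlx3-positive cells at E18.5 (6 libraries) against the same at E14.5 (4 libraries), 1 point per gene called at both stages, with examples named. 358 genes lay higher and 540 lower at both stages, and 68 and 56 changed side.

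At E14.5 Rab15 was lower in the mutant than in the control members of both litters fitted, as at E18.5. Its level in the members was 43.2 and 48.9 CPM in control replicates 1 and 3 and 7.59 and 6.63 CPM in mutant replicates 1 and 3. In Tlx3-positive cells of the same libraries Rab15 was at 83.0 and 41.1 CPM in controls and 26.4 and 12.4 CPM in mutants. With 2 libraries per genotype at E14.5, no test between genotypes was made there.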

How the data were processed

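Matrices of UMI counts per gene and cell were deposited for 14 libraries made with 10x Genomics 3′ chemistry. The authors made the counts with Cell Ranger against mm10 (version 5.0.1 in the submitters' processing notes; the headers of E14.5 control replicates 1 and 2 give 3.1.0), without normalization. Here, cells with at least 1000 genes and under 10% mitochondrial UMIs were kept, gated on raw UMIs, and summed per library and cell group, since cells are not replicates. A gene was tested where 10% or more of either group's cells had it, by the quasi-likelihood test of edgeR 4.0.16 (TMM scaling, Benjamini-Hochberg adjustment), with sums under 10 cells left out. Cell groups were compared with library as a block. A call needed an adjusted p under 0.05 and a log2 change over 0.25. Standard errors are the log2 change divided by the root of its F statistic. P-values measure the spread between embryos, 1 per library. The gated cells and the gene lists were chosen with earlier results of these data known.

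No doublet was removed in the main results, and an alternative took out the 7.5% of cells with the highest Scrublet score (scanpy 1.11.5). Other alternatives were RLE size factors, DESeq2 1.42.0, no expression filter, a 5% mitochondrial limit, 2 or more Barx2 UMIs, a gate on cells thinned to 5000 UMIs, each library left out, and the litter block. The extraction protocol in the labels calls mutants and controls littermates, and replicate numbers were taken as pairs. Deviations from the group means correlated by 0.186 to 0.221 between libraries of the same number and by -0.168 to -0.035 between others. Deviations from a mean of 3 libraries push the second set below 0 where the first is positive. The correlations therefore cannot show that same-numbered embryos were littermates, and the results with the block rest on that pairing. Named genes were the genes of the gate and the 4 proposed markers, the 12 strongest called rises and falls per comparison with libraries apart or all in 1 direction, up to 4 called genes per list, and genes the study named, leaving out sex-linked, mitochondrial, ribosomal and unnamed gene models. The edgeR fits between genotypes and between Barx2-positive and Tlx3-positive cells were run on simulated counts, with the expression filter taken over both groups together. The outcome is not reported here. Coordinates are GRCm38, and promoter windows come from the RefSeq table of GRCm38.p6. P5 libraries and cells failing the limits were not analysed further here. Values of some single genes of the lists are not reported here.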

Additional observations from a re-analysis of the deposited data

Results flagged for a closer look

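For 10 of 9941 genes tested (0.101%), the genotype effect at E18.5 differed between Barx2-positive and Tlx3-positive cells by an interaction term in edgeR (adjusted p under 0.05), 6 with a more positive and 4 with a more negative effect in Barx2-positive cells. An unadjusted p under 0.05, which about 5% of genes reach with no effect, was found for 546 of the 9941. The differences are log2 changes in Barx2-positive minus those in Tlx3-positive cells. They were 1.54 for Tenm4, a teneurin adhesion gene, 1.48 for Casz1 and 0.83 for Sp5, zinc finger factor genes, 1.09 for Unc5b, 0.85 for Mfap2, a microfibril gene, and 0.63 for Pax3. They were -2.19 for Rab15, -1.53 for D430041D05Rik, -0.72 for Gm28050, a gene model without a name, and -0.49 for Lmnb1, which encodes lamin B1. D430041D05Rik kept its call in all 13 alternatives, Rab15 lost its call with the 5% mitochondrial limit and without control replicate 2, and the other 8 lost theirs in both of these and with DESeq2, among other settings.

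The per-library values show which cell group moved. Pax3 was at 225, 257 and 269 CPM in control and 263, 238 and 240 CPM in mutant Barx2-positive cells, which overlapped, but at 34.2, 40.5 and 40.7 against 24.4, 21.8 and 26.9 CPM in Tlx3-positive cells, which did not. Casz1 overlapped between genotypes in Barx2-positive cells, and in Tlx3-positive cells was at 6.01, 8.50 and 7.40 CPM in controls and 3.91, 2.75 and 2.85 CPM in mutants. Lmnb1 was at 272, 277 and 281 CPM in control and 227, 202 and 205 CPM in mutant Barx2-positive cells, whereas its values in Tlx3-positive cells overlapped. Tenm4 was at 11.3 ± 2.65 CPM in control and 18.9 ± 7.25 CPM in mutant Barx2-positive cells (SD, n = 3 each), which overlapped, and at 26.3, 30.1 and 26.3 against 18.8, 14.7 and 14.8 CPM in Tlx3-positive cells, which did not, so its means moved in opposite directions. The cause of these differences was not tested.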

How the results depend on the processing

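The differences in relative share rest on mutant replicate 1: without it the share among granule lineage cells went to -0.398 points and the log2 ratio to Tlx3-positive cells to -0.014, while leaving out other libraries gave up to 1.24 points and 0.50. The number of genes called between genotypes was 10, and 82 with no expression filter, 1 with the 5% mitochondrial limit, 22 with 2 or more Barx2 UMIs, 34 with the gate on thinned cells, 68 with the litter as a replicate block, 9 with DESeq2 (4 higher, 5 lower) and 6 to 16 with a library left out (6 without control replicate 2, 16 without mutant replicate 1). D430041D05Rik was called in all 14 alternatives, Opcml and Rab15 in 13, and Hrk and Tph1 in 12. The block changed no call of a share, whose paired differences were higher in 3 of 3 litters for the share of kept cells at E18.5 (1 of 3 with the 5% limit and on thinned cells, 2 of 3 with 2 or more Barx2 UMIs; exact sign-flip p = 0.25, the smallest 3 pairs allow). Genes whose genotype effect differed between cell groups numbered 10, and 2 with DESeq2, 44 with no filter, 1 with the 5% limit, 51 with the gate on thinned cells and 1 to 16 with a library left out (16 without control replicate 1, 1 without control replicate 2, 5 without mutant replicate 2). At E14.5 DESeq2 called 781 genes in place of 1501. Counts against Tlx3-positive cells were 4077 to 6116 and against neither cells 4057 to 6032 over their alternatives. Signs reversed for Atoh1 between genotypes (-0.012, gate on thinned cells), Ube2c against Tlx3-positive cells (-0.054, 2 or more Barx2 UMIs) and, at E14.5 with the gate on thinned cells, Birc5 (-0.52), Ccnb2 (-1.19) and Cenpa (-0.74), and the cause was not tested. The 5% limit also left fewer cells. With 74 to 184 members per library and a gate that 53.1% of members met with 1 Barx2 UMI, a member in a shallow cell can be missed, and genes seen in few cells could not be tested.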

Other observations

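Some other genes, chosen here after their values were seen, also differed within litters. Nnat, a gene of the newborn granule neuron list, which encodes the membrane protein neuronatin, was at 1276, 1818 and 1747 CPM in control and 1750, 3131 and 3048 CPM in mutant Barx2-positive cells, higher in each mutant than in its littermate (log2 0.64 ± 0.10 with the litter block, edgeR adjusted p = 0.000173). Sparcl1, a matricellular protein gene, was at 5.01, 2.07 and 17.4 CPM in controls and 19.7, 12.8 and 97.2 CPM in mutants (2.31 ± 0.27, edgeR adjusted p = 1.6e-06), with replicate 3 the highest of both genotypes. In mutant replicate 3 the glial genes also summed highest, at 881 CPM against 426 to 524 CPM in the other libraries, and Apoe, a gene of the glial list, was at 13.37, 14.49 and 14.24 CPM in controls and 19.7, 23.2 and 56.2 CPM in the mutants (log2 1.10 ± 0.26 with the litter block, edgeR adjusted p = 0.0275). The part of glial cells in the Sparcl1 difference was not tested. Ldha, the lactate dehydrogenase A gene, was at 876, 705 and 823 CPM in controls and 673, 608 and 481 CPM in mutants (-0.49 ± 0.10, edgeR adjusted p = 0.0144).

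The gate found 11 of 11300 kept cells (0.0973%, 95% Wilson interval 0.0544 to 0.174) and 9 of 6608 (0.136%, 0.0717 to 0.259) in the 2 P5 control libraries, which came from pontine nuclei of pooled pups and are not comparable with whole hindbrain.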
